A study of Mus musculus with 18 samples.

Results

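The comparison described here sets 3 libraries of mouse embryonic stem cells (ESCs) labelled Oct1 cKO against 3 libraries of the parental cells, all taken after 6 days of retinoic acid. These 6 libraries were chosen by their labels for genotype and day, out of 18 libraries in all, and no other library entered the contrast. Both genotypes were plated on gelatin (0.01%) and kept in DMEM with retinoic acid at 1.5 ug/ml, non-essential amino acids, glutamine and antibiotics. The other 12 libraries hold the same genotypes at day 0 and day 2 and are used below where the difference at day 6 is set against that of an earlier day. The labels give no strain, do not say how or where the Oct1 gene was deleted, and do not say whether either line is a single clone. Whether the replicate libraries stem from separate cultures is not given either, so the p-values measure only how far these libraries spread, and that spread may be technical.

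Oct1 is the protein of Pou2f1, a POU-family transcription factor that most cells express and that recognises an octamer DNA motif. Oct4, the protein of Pou5f1, belongs to the same family and is a core factor of pluripotency. Retinoic acid, a derivative of vitamin A, binds nuclear receptors that sit on DNA, switches on early Hox genes and its own metabolic enzymes, and drives ESCs out of pluripotency. The title of the series names Smad factors and mesoderm, so genes of those groups are given here with the markers of the other lineages.

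Levels are given as CPM, reads of a gene scaled by the effective size of its library, and are compared between libraries and not between genes. A gene was called when its adjusted p in edgeR's quasi-likelihood test was under 0.05 (SE, standard error; SD, standard deviation; n = 3 libraries a group). The 6 libraries held 17389280 to 19296966 counts, 0.996 to 1.18% of them from mitochondrial genes and 3.13 to 3.41% from ribosomal protein genes. Of 18352 genes tested, 13680 (74.5%) were called: 6740 (36.7%) had more RNA in the Oct1 cKO and 6940 (37.8%) less. With library sizes alone, which move the median of all genes by -0.20 on the log2 scale, the split was 5241 higher and 8414 lower. Differences of at least 2-fold were called for 6599 genes (36.0%), 2865 higher (15.6%) and 3734 lower (20.3%). The 2 groups did not overlap for 14098 genes (76.8%). With calls this frequent, a called gene is the usual case here, so sizes and the balance of directions are given beside each count. Genes of chromosome 11 need separate care: the median log2 fold change of its 965 genes with at least 5 CPM was -0.40 and 65.2% were called lower, against medians of -0.01 to 0.16 on the other chromosomes. The RNA is bulk, so fewer cells of a type and less RNA per cell cannot be told apart.

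Pou2f1, the targeted gene (ENSMUSG00000026565, GRCm38 chromosome 1, 165865154 to 166002678, minus strand), stood at 64.9, 61.1 and 64.2 CPM in the parental libraries and at 36, 45.3 and 44.5 CPM in the Oct1 cKO libraries. Each cKO library lay below each parental one, but most reads remained, and the count covers the whole gene, including exons that may not have been deleted. Its log2 fold change was -0.60 ± 0.11 (SE, adjusted p = 8.6e-05), which was not called in edgeR's test against a fold of 1.5 (adjusted p = 0.411). That difference did not differ detectably from the one at day 2 (0.19 ± 0.15, adjusted p = 0.284).

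Pou5f1 (chromosome 17, 35506018 to 35510772, plus strand) was among the largest differences of the contrast. Parental levels were 0.149, 0.467 and 0.47 CPM and Oct1 cKO levels 30.8, 31.6 and 30.4 CPM (6.40 ± 0.18, adjusted p = 1.94e-22). The parental cells were thus near 0 while every cKO library kept a measurable level, with 21 reads over the 3 parental libraries and 1543 over the 3 cKO libraries. Dnmt3l, a cofactor of the DNA methyltransferases that is expressed in ESCs and germ cells (chromosome 10, 78041947 to 78063622, plus strand), stood at 1.59, 1.56 and 2.25 CPM in parental and at 54, 61.4 and 67 CPM in cKO libraries (5.08 ± 0.10, adjusted p = 9.03e-33). Cdh1, the adhesion molecule E-cadherin of epithelia and ESCs (chromosome 8, 106603351 to 106670246, plus strand), stood at 39.2, 45.5 and 42.5 CPM against 524, 486 and 541 CPM (3.61 ± 0.06, adjusted p = 5.26e-36). Dcx, a microtubule protein of young neurons (chromosome X, 143855842 to 143933311, minus strand), went the other way, with 105, 106 and 102 CPM in parental and 0.536, 1.39 and 0.381 CPM in cKO libraries (-7.05 ± 0.15, adjusted p = 1.39e-30). None of these 4 genes overlapped between the groups, which held for 76.8% of all genes tested as well.

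**Figure D1:**
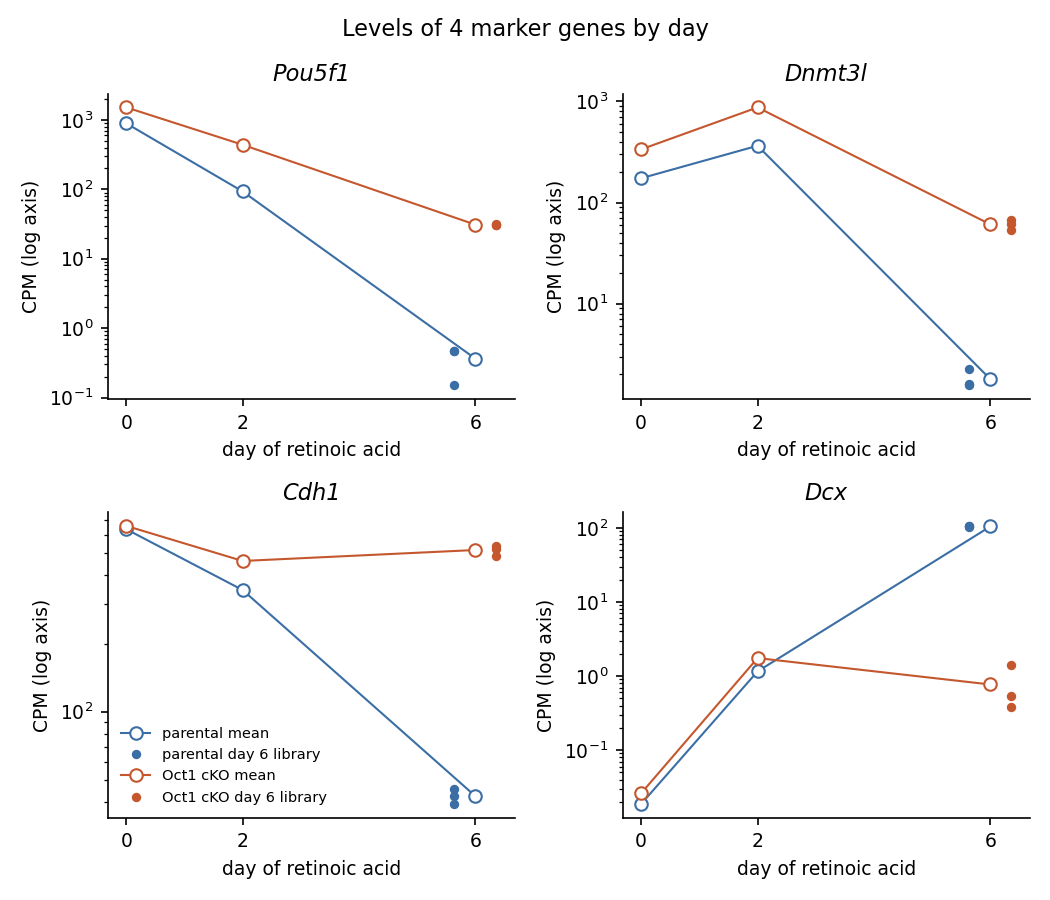
CPM on a log axis of Pou5f1, Dnmt3l, Cdh1 and Dcx against the day of retinoic acid. Open circles joined by lines are group means and dots are the single libraries of day 6, drawn beside the mean: Pou5f1 stood near 31 CPM in the Oct1 cKO and near 0.362 CPM in parental cells at day 6, and Dcx at 0.769 and 105 CPM.

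For these 4 markers the genotype difference at day 6 was larger than at day 2, by the interaction of genotype and day in edgeR. The gain over day 2 was 4.17 ± 0.24 on the log2 scale for Pou5f1 (adjusted p = 9.73e-15), 3.82 ± 0.13 for Dnmt3l (adjusted p = 2.17e-25) and 3.18 ± 0.07 for Cdh1 (adjusted p = 3.64e-30). Dcx went from a mean of 1.15 CPM in parental and 1.75 CPM in cKO cells at day 2 to the gap above, a change of -7.67 ± 0.39 (adjusted p = 1.51e-18). Over all genes, 11657 (63.5%) had a genotype difference at day 6 that differed from day 2, and 11730 (63.9%) from day 0.

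**Figure D2:**
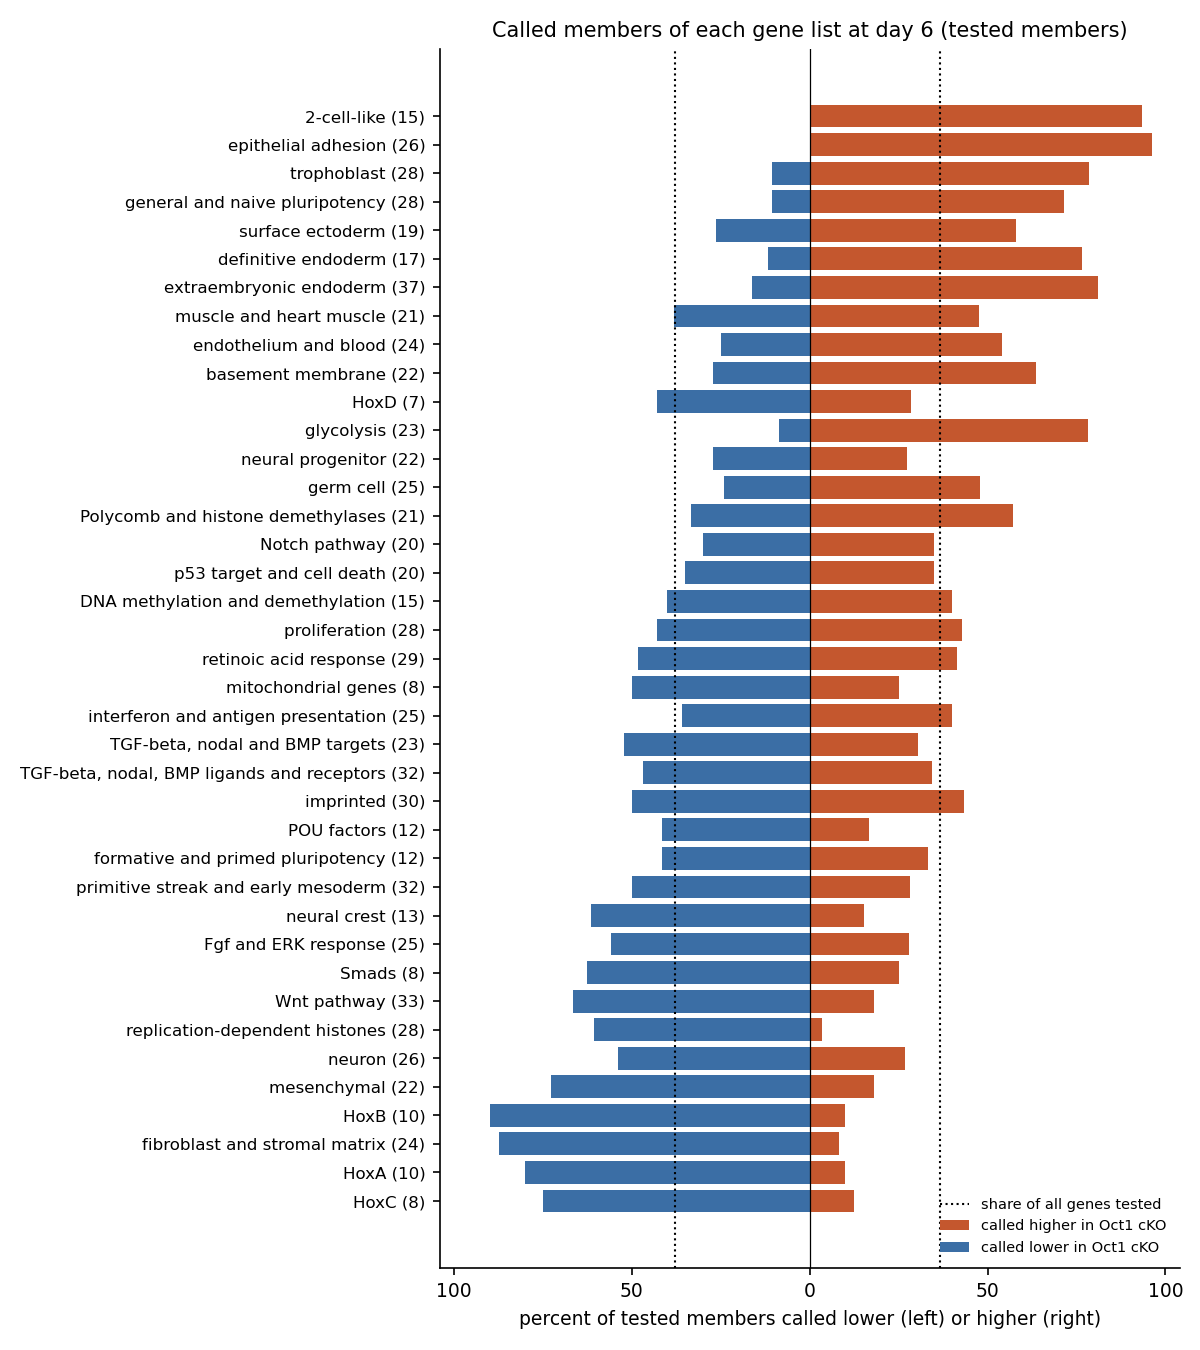
Percent of the tested members of each gene list with a called rise (right) or fall (left) in the Oct1 cKO at day 6, ordered by the list's median, with the number tested in brackets. Dotted lines are the shares over all genes tested, 36.7% higher and 37.8% lower; 2-cell-like, epithelial adhesion and trophoblast genes stood at the top, and the HoxC, HoxA and stromal matrix genes at the bottom.

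Pluripotency genes, naive and general, mostly stood above the parental level: 20 of 28 tested were called higher and 3 lower, with a median log2 fold change of 1.86 against 0 over all genes. Prdm14 and Gdf3 held no parental read (11 and 3 in the cKO), and with both set at a floor of 3 counts per library the median was 1.65. Dppa5a, an RNA-binding protein of early embryonic cells, stood at 4.83, 3.94 and 5.01 CPM in parental and 58.2, 62.9 and 62.3 CPM in cKO libraries (3.73 ± 0.09, adjusted p = 9.87e-30). Utf1, a chromatin protein of ESCs, stood at 0.945, 0.934 and 1.2 CPM against 19.4, 17.5 and 19.3 CPM (4.18 ± 0.17, adjusted p = 9.6e-21). Zfp42, the ESC marker Rex1, stood at 5.17, 6.8 and 5.8 CPM against 39.3, 37.8 and 41.2 CPM (2.73 ± 0.08, adjusted p = 4.64e-27). Lin28a, an inhibitor of let-7 microRNA maturation, rose from 35 ± 1.26 CPM (SD, n = 3) to 184 ± 8.14 CPM. In every one of these genes the groups were well apart, yet the cKO levels lay far under those of day 0, where Dppa5a had stood at a mean of 2623 CPM and Pou5f1 at 1517 CPM in the same genotype.

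The pluripotency genes did not move as a block. Nanog, the homeobox partner of Oct4, was lower in the cKO, with 1.69, 1.35 and 0.992 CPM in parental and 0.476, 0.232 and 0.318 CPM in cKO libraries (-1.96 ± 0.32, adjusted p = 7.6e-07), from 79 and 17 reads in all. Sox2, the other Oct4 partner, was higher on very few reads, 11 in parental and 32 in cKO libraries (0.191 ± 0.167 and 0.643 ± 0.281 CPM, adjusted p = 0.00079). Zfp57, a zinc finger protein that keeps imprints methylated, fell from 83.7 ± 2.3 to 25.1 ± 1.6 CPM (-1.74 ± 0.06, adjusted p = 1.76e-25), and Tbx3 fell from 69.8 ± 1.71 to 45.5 ± 1.01 CPM. Tdgf1, the nodal co-receptor, was not called, at 10.3 ± 0.771 and 9.12 ± 1.03 CPM (adjusted p = 0.0777, on 603 and 453 reads). Pou5f1 and Nanog thus went in opposite directions, and neither Nanog nor Sox2 passed 2 CPM in any day 6 library.

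Formative and primed pluripotency genes, which come on as ESCs leave the naive state, were split, with 4 of 12 higher and 5 lower. Otx2, a homeobox factor of the epiblast and forebrain, stood at 0.199, 0.0519 and 0.261 CPM in parental and 2.08, 2.43 and 2.42 CPM in cKO libraries (3.70 ± 0.40, adjusted p = 1.13e-10, on 10 and 115 reads). Fgf5, a growth factor of the epiblast, stood at 4.43, 4.62 and 4.86 CPM against 0.715, 0.405 and 0.953 CPM (-2.75 ± 0.22, adjusted p = 2.78e-14). Among 15 DNA methylation genes, 6 were higher and 6 lower (4 and 7 with library sizes alone). The de novo enzymes parted: Dnmt3b rose from 14.2 ± 1.68 to 61.7 ± 1.86 CPM (2.12 ± 0.07), while Dnmt3a fell from 243 ± 9.34 to 160 ± 3.53 CPM (-0.60 ± 0.05). Of 25 germ cell genes, 12 were higher and 6 lower; Taf7l, a germ cell paralogue of a general transcription factor, rose from 10 ± 0.62 to 71.3 ± 2.36 CPM (2.83 ± 0.09).

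Genes of the 2-cell-like state, which a few cells of an ESC culture enter at any time, had 14 of 15 members higher and 0 lower, with a median of 4.20. Zscan4d stood at 0, 0.156 and 0.104 CPM in parental and 5.06, 4.29 and 5.47 CPM in cKO libraries (5.73 ± 0.36, adjusted p = 7.56e-17, on 5 and 245 reads). Zfp352 rose from 0.204 ± 0.0461 to 2.24 ± 0.388 CPM (3.40 ± 0.31). The Zscan4, Tcstv and Usp17 members are near-identical copies whose reads the authors' counting could split or share, so the levels of single copies are uncertain. For the same reason the list's count and median do not rest on separate observations. Apart from Eif1a, no called member held more than 12 parental reads. Duxf3, the member not called, held 1 and 3 reads. At day 2 Zscan4d had means of 86.3 CPM in parental and 96.9 CPM in cKO cells, so its day 6 gap stood on a fall that was deeper in the parental cells.

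Epithelial adhesion genes rose almost throughout. Of 26 members, 25 were higher and 0 lower, with a median of 2.71, and 24 were higher by at least 2-fold, against 15.6% of all genes. Cldn3, a claudin of tight junctions, stood at 1.94, 2.02 and 1.83 CPM in parental and 35.4, 34.3 and 34.8 CPM in cKO libraries (4.17 ± 0.11, adjusted p = 1.86e-29). Cldn6, a claudin of early embryonic epithelia, stood at 11.1, 13.7 and 12.1 CPM against 121, 126 and 121 CPM (3.32 ± 0.06). The splicing regulator Esrp1, which sets epithelial isoforms, rose from 10.4 ± 0.417 to 80.1 ± 2.75 CPM (2.94 ± 0.07), and the epithelial transcription factor Grhl2 from 2.62 ± 0.284 to 17.1 ± 1.18 CPM (2.70 ± 0.12). Desmoplakin, Dsp, a desmosome protein, rose from 101 ± 2.81 to 463 ± 13.7 CPM. The simple-epithelial keratin Krt8 rose from 416 ± 18.9 to 1514 ± 107 CPM (1.86 ± 0.06) and its partner Krt18 from 426 ± 28.8 to 1571 ± 123 CPM. Rab25 was the one member not called (-0.21 on the log2 scale).

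Krt8 had not differed at day 2, at means of 71.7 and 66.1 CPM, and the interaction of genotype and day was 1.98 ± 0.08 (adjusted p = 3.87e-21). The keratin gap thus opened between days 2 and 6 while both genotypes gained keratin reads, whereas Cdh1 was kept in the cKO and fell in the parental cells, from a mean of 344 CPM at day 2.

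Mesenchymal genes showed the opposite balance, with 16 of 22 lower and 4 higher and a median of -1.86. Cdh2, the N-cadherin of mesenchyme and neural tissue, stood at 169, 170 and 160 CPM in parental and 14.1, 12.5 and 9.72 CPM in cKO libraries. Cdh11, a cadherin of mesenchyme, fell from 191 ± 4.81 to 14.7 ± 2.72 CPM (-3.70 ± 0.07, adjusted p = 4.67e-33). Among the transcription factors that repress epithelial genes, Zeb1 fell from 114 ± 4.14 to 19.2 ± 0.52 CPM (-2.57 ± 0.07), Zeb2 from 57.5 ± 2.05 to 6.92 ± 0.539 CPM (-3.06 ± 0.09), Snai2 from 40.8 ± 2.19 to 4.4 ± 0.333 CPM (-3.21 ± 0.11) and Twist1 from 45.5 ± 1.61 to 3.62 ± 0.779 CPM (-3.64 ± 0.11). Snai1, of the same class, stood apart from them, at 19.4, 19.1 and 17.4 CPM in parental and 37.2, 34.7 and 32.5 CPM in cKO libraries (0.90 ± 0.07, adjusted p = 6.89e-14). Fibronectin, Fn1, and its receptor subunit Itga5 were also higher, Fn1 from 1107 ± 50.9 to 1507 ± 70.8 CPM and Itga5 from 256 ± 9.75 to 513 ± 20.7 CPM. Twist1 and Snai2 had not been called at day 2 (adjusted p = 0.304 and 0.8), and their interactions with day were -3.78 ± 0.17 and -3.14 ± 0.27.

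**Figure D3:**
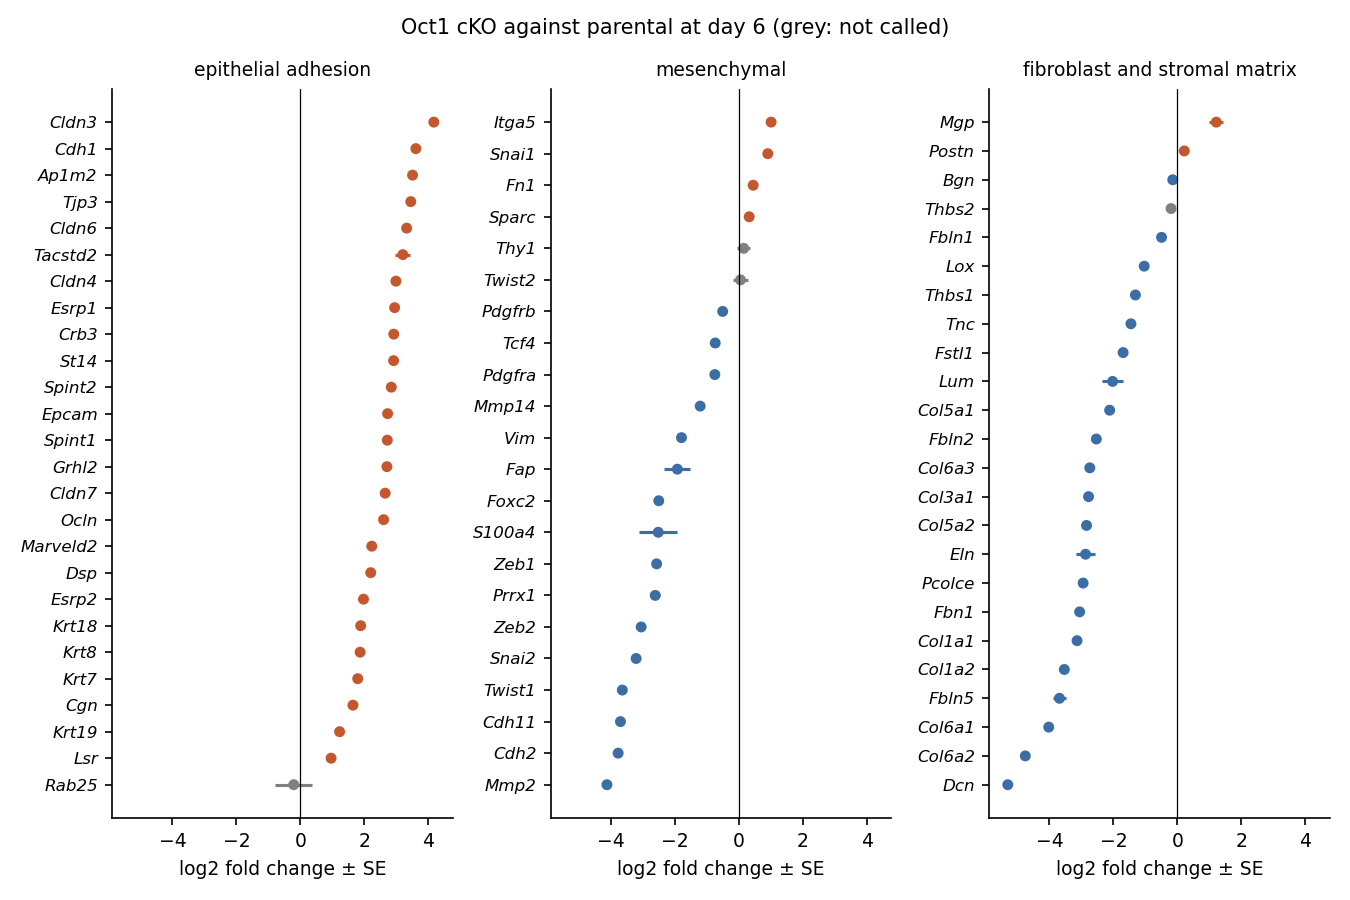
Log2 fold change of each tested gene of 3 lists, Oct1 cKO against parental at day 6; bars are the SE, red dots were called higher, blue dots lower and grey dots were not called. Of the epithelial genes 25 of 26 lay to the right, and of the stromal matrix genes 21 of 24 were called lower.

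Fibroblast and stromal matrix genes had 21 of 24 members lower and 2 higher, with a median of -2.64. Col1a1, a fibrillar collagen chain on chromosome 11, stood at 2109, 1941 and 2064 CPM in parental and 250, 247 and 198 CPM in cKO libraries (-3.14 ± 0.08, adjusted p = 4.49e-19). Its partner Col1a2, on chromosome 6, stood at 675, 676 and 730 CPM against 63, 63.5 and 52.9 CPM (-3.53 ± 0.07, adjusted p = 6.31e-31). Decorin, Dcn, a matrix proteoglycan, stood at 111, 113 and 114 CPM against 2.98, 3.07 and 2.48 CPM (-5.30 ± 0.09). The collagen VI chain Col6a2 fell from 329 ± 40.2 to 12.2 ± 0.157 CPM (-4.75 ± 0.08). Postn went slightly the other way, from 49.6 ± 2.54 to 57.5 ± 3.67 CPM, and Mgp was higher too. The rise of Postn depends on the scaling of the libraries, since it held 2902 parental and 2864 cKO reads. Fibroblast markers could also report feeder cells, which the labels do not mention; Col1a1 had means of 540 and 155 CPM at day 0 and of 56.7 and 44.9 CPM at day 2 in parental and cKO cells, and the part of such cells in the day 6 result was not tested.

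Basement membrane genes, the sheet under epithelia, were 14 of 22 higher and 6 lower, with a median of 0.55. At 2-fold or more, 5 were higher and 6 lower. The major collagen IV chain Col4a1 rose from 4453 ± 36.6 to 9474 ± 369 CPM (1.09 ± 0.05) and the laminin chain Lama1 from 1439 ± 47 to 2437 ± 146 CPM (0.76 ± 0.06). Other chains of both families fell: Col4a6 from 33 ± 2.98 to 3.31 ± 0.635 CPM (-3.30 ± 0.13) and Lama2, a laminin of muscle and stroma, from 6.9 ± 0.716 to 0.805 ± 0.159 CPM (-3.09 ± 0.21).

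Neuronal genes were lower more often than higher, 14 of 26 against 7, with a median of -1.50 (-1.21 with Tlx3, which held no read in 1 group, at the floor). The neurofilament chain Nefm stood at 457, 414 and 366 CPM in parental and 8.04, 7.99 and 7.75 CPM in cKO libraries (-5.70 ± 0.08, adjusted p = 6.01e-36). Stmn2, a microtubule regulator of growing axons, stood at 92.6, 90.4 and 91 CPM against 2.62, 1.68 and 1.33 CPM (-5.59 ± 0.10). The adhesion molecule Ncam1 fell from 261 ± 4.81 to 40.1 ± 1.36 CPM (-2.70 ± 0.06). Other genes that bear a neuronal name went up, though at lower levels: the tubulin Tubb3 stood at 10.7, 8.25 and 9.09 CPM against 29.2, 21.8 and 24.4 CPM (1.43 ± 0.11, adjusted p = 3.07e-12). The tau gene Mapt, on chromosome 11, rose from 1.25 ± 0.178 to 10.4 ± 1.63 CPM (3.05 ± 0.15), the RNA-binding protein Elavl3 from 0.732 ± 0.193 to 7.1 ± 1.25 CPM and L1cam from 0.653 ± 0.256 to 6.42 ± 0.496 CPM. Tubb3 and Mapt had been higher at day 0, at 67.7 to 81.7 CPM and 49.2 to 53 CPM (group means), so their day 6 gap lay on a fall in both genotypes.

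Neural progenitor genes were 6 higher and 6 lower of 22, and 10 were not called (6 and 7 with library sizes alone). Pax6, a master factor of neural tube and eye, stood at 5.03, 6.49 and 5.9 CPM in parental and 0.357, 0.116 and 0.127 CPM in cKO libraries (-4.80 ± 0.28, adjusted p = 1.95e-18, on 339 and 10 reads), and the intermediate filament Nes fell from 149 ± 13.5 to 30.8 ± 2.13 CPM. Irx3, a homeobox factor, rose from 9.77 ± 0.465 to 60.8 ± 7.01 CPM (2.64 ± 0.08). Sox1, which defines neural progenitors, held 1 read over the 3 parental libraries and 0 over the cKO libraries, so neither group carried a measurable level of it. Of 13 neural crest genes, 8 were lower and 2 higher. Ngfr, the neurotrophin receptor p75 on chromosome 11, fell from 24.9 ± 1.66 to 0.583 ± 0.0923 CPM, and Tfap2a, a factor of crest, surface ectoderm and trophoblast, rose from 1.86 ± 0.256 to 9.91 ± 0.773 CPM.

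Mesoderm genes were lower more often than higher, 16 of 32 against 9, with a median of -0.77. Over all genes 37.8% were lower and 36.7% higher. Without the 4 members on chromosome 11, 14 were lower and 8 higher. Among factors of lateral and visceral mesoderm, Hand2 stood at 18.2, 21.3 and 18.6 CPM in parental and 2.02, 1.74 and 1.02 CPM in cKO libraries (-3.59 ± 0.16, adjusted p = 9.06e-22), and Tcf21 at 51.5, 53.9 and 57.6 CPM against 6.49, 5.27 and 4.07 CPM (-3.36 ± 0.10, adjusted p = 2.61e-26). The receptor Pdgfra fell from 343 ± 7.28 to 203 ± 13.7 CPM (-0.75 ± 0.06). Hand1, which also acts in trophoblast and lies on chromosome 11, rose instead, from 18.8, 18.6 and 15.7 CPM to 104, 88.7 and 86.5 CPM (2.39 ± 0.08, adjusted p = 1.18e-25). Eomes, shared by primitive streak and trophoblast, rose from 0.887 ± 0.184 to 4.33 ± 0.711 CPM. The streak gene T (brachyury) held 4 and 2 reads, and Mixl1 27 and 2 reads (adjusted p = 0.00114), so these markers of the streak were close to 0 in both groups.

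Endothelium and blood genes parted as well, 13 of 24 higher and 6 lower. The VEGF receptor Kdr, found on mesodermal precursors and vessels, stood at 211, 225 and 241 CPM in parental and at 12.4, 13.1 and 13.1 CPM in cKO libraries (-4.13 ± 0.07, adjusted p = 3.76e-35). Flt1, the other VEGF receptor, stood at 109, 109 and 105 CPM against 268, 272 and 242 CPM (1.28 ± 0.06, adjusted p = 9.71e-21). Cdh5, the cadherin of endothelial junctions, stood at 97.3, 89.9 and 83.6 CPM against 282, 264 and 285 CPM (1.62 ± 0.06, adjusted p = 1.04e-25), and Esam, another junction protein, rose from 10.3 ± 1.68 to 38.4 ± 4.33 CPM. Transcription factors of blood and endothelial progenitors differed among themselves. Gata2 rose from 96.5 ± 8.59 to 201 ± 10.1 CPM (1.06 ± 0.06) and Runx1 from 6.72 ± 0.443 to 11.8 ± 1.1 CPM (0.81 ± 0.11), while Tal1 held 20 and 2 reads and Fli1 46 and 5, and both were called lower. The gap in Kdr did not differ detectably from that at day 2 (interaction -0.34 ± 0.27, adjusted p = 0.29), while Cdh5 had been lower in the cKO at day 2, at 0.942 and 0.294 CPM.

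Among muscle and heart muscle genes, 10 of 21 were higher and 8 lower. Among sarcomere genes of heart and slow fibres, several rose: Myl3 stood at 1.29, 1.66 and 1.67 CPM against 27.2, 29.8 and 29.2 CPM (4.22 ± 0.13), Myl7, on chromosome 11, rose from 6.07 ± 0.178 to 34.2 ± 2.04 CPM and Myh7 from 0.239 ± 0.215 to 5.16 ± 0.397 CPM. The cardiac troponin Tnni3 fell instead, from 3.94 ± 0.562 to 1.49 ± 0.228 CPM, and so did the slow-fibre troponin Tnni1, from 11.6 ± 1.66 to 4.79 ± 0.487 CPM (-1.28 ± 0.13). Smooth muscle actin, Acta2, fell from 536 ± 88.6 to 95.8 ± 23.6 CPM (-2.48 ± 0.17, adjusted p = 9.22e-09), with Tagln, Myh11 and Cnn1 lower too.

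Extraembryonic endoderm, which forms the yolk sac and carries nutrients and blood-plasma proteins, had 30 of 37 genes higher and 6 lower with a median of 1.07. Definitive endoderm genes, many shared with it, were 13 of 17 higher and 2 lower. The factors Sox17, Foxa2 and Hnf4a rose: Sox17 stood at 10.6, 10.8 and 10.1 CPM in parental and 46.4, 43.8 and 41.2 CPM in cKO libraries (2.06 ± 0.09, adjusted p = 7.74e-23), Foxa2 rose from 13.5 ± 0.688 to 35.2 ± 2.78 CPM and Hnf4a from 3.04 ± 0.307 to 14.9 ± 0.368 CPM. Transthyretin, Ttr, a carrier of thyroid hormone and retinol, stood at 4.43, 5.61 and 5.07 CPM against 42, 40.1 and 42.8 CPM (3.05 ± 0.10), and apolipoprotein Apoe rose from 40.1 ± 3.97 to 159 ± 5.86 CPM. The GATA factors of this lineage parted. Gata4 rose from 82.8, 94.9 and 86.6 CPM to 198, 200 and 188 CPM (1.15 ± 0.05, adjusted p = 9.47e-22), while Gata6 fell from 303, 313 and 295 CPM to 71.3, 69.2 and 63.5 CPM (-2.16 ± 0.06, adjusted p = 1.06e-29). Afp, a plasma protein of the yolk sac, fell slightly, from 11.1 ± 0.424 to 8.4 ± 0.652 CPM.

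Trophoblast genes, of the placental lineage, were 22 of 28 higher and 3 lower, with a median of 2.07. Esx1, a placental homeobox gene on chromosome X, stood at 4.23, 3.84 and 4.02 CPM in parental and 51.3, 45.3 and 49.1 CPM in cKO libraries (3.59 ± 0.09, adjusted p = 2.23e-29). Gata3 stood at 19.9, 20.3 and 19.6 CPM against 89, 88 and 89.4 CPM (2.15 ± 0.07, adjusted p = 2.82e-27). Ascl2 rose from 4.69 ± 0.834 to 30.2 ± 3.71 CPM, Elf5 from 0.668 ± 0.415 to 5.73 ± 0.907 CPM and Cdx2 from 3.2 ± 0.908 to 9.14 ± 1.24 CPM (1.51 ± 0.15). Genes of differentiated trophoblast went both ways. Syna, a fusion protein of the syncytiotrophoblast, rose from 18.6 ± 1.8 to 90.8 ± 0.659 CPM (2.29 ± 0.07), and Prl3d1, Ctsq and Gcm1 were not called. Tpbpa, a marker of the spongiotrophoblast, stood at 105, 91.6 and 98 CPM against 37.8, 37.3 and 34.4 CPM (-1.43 ± 0.07, adjusted p = 1.39e-18), and Ctsj, a placental cathepsin in a family of close copies, fell from 64.5 ± 13 to 26 ± 2.82 CPM. Of 19 surface ectoderm genes, 11 were higher and 5 lower, or 10 and 2 without the 5 on chromosome 11, and the basal keratin Krt14, on chromosome 11, was among the lower ones (12.6 ± 1.53 and 3.43 ± 0.613 CPM). These lists share members such as Krt8, Gata3 and Tfap2a, so their counts are not separate observations.

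Retinoic acid genes were mixed, 12 of 29 higher and 14 lower with a median of -0.02. The receptors Rara, on chromosome 11, and Rarb fell, Rara from 79.4 ± 4.25 to 19.4 ± 0.63 CPM (-2.03 ± 0.07) and Rarb, a direct target, from 150, 150 and 146 CPM to 49.6, 41.5 and 42.7 CPM (-1.74 ± 0.06, adjusted p = 6.83e-25). Of the enzymes, Aldh1a2, which makes retinoic acid in mesoderm, fell from 85.1, 98.4 and 93.3 CPM to 12.6, 12.9 and 13.9 CPM (-2.81 ± 0.08, adjusted p = 2.24e-28), and Dhrs3, which turns retinal back to retinol, from 393 ± 9.88 to 58.1 ± 4.29 CPM (-2.76 ± 0.05). Aldh1a1, another retinal dehydrogenase, rose from 3.43, 3.22 and 3.13 CPM to 9.65, 10.5 and 12 CPM (1.71 ± 0.15). Cyp26a1, which degrades retinoic acid, was slightly higher, at 265, 290 and 271 CPM against 366, 332 and 306 CPM (0.28 ± 0.05, adjusted p = 3.54e-06), but library sizes alone gave 0.08 and ended the call (adjusted p = 0.166; over all alternatives 5.69e-08 to 1, the last against a fold of 1.5). The Hox cofactor Meis2 fell from 432, 423 and 414 CPM to 45.7, 44.6 and 36 CPM (-3.33 ± 0.07).

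Hox genes, which set position along the body axis and lie in 4 clusters, were mostly lower. Of 32 tested genes of paralogue groups 2 and above, 26 were lower and 2 higher, with a median of -2.85. Without HoxB, which lies on chromosome 11, it was 17 of 23 lower. Members of group 1, which answer retinoic acid early, include Hoxb1 and Hoxd1, and both were called higher instead. Hoxb1 stood at 1.14, 0.934 and 1.25 CPM in parental and 2.5, 1.51 and 2.22 CPM in cKO libraries (0.89 ± 0.21, adjusted p = 0.000252). Its 65 and 103 reads were not called in edgeR's test against a fold of 1.5 (adjusted p = 0.06). Hoxd1 was called on 10 and 24 reads with overlapping libraries (adjusted p = 0.0168), and the call was lost without parental replicate 3 (adjusted p = 0.1) and without cKO replicates 1 or 2 (adjusted p = 0.0728 and 0.084).

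Among the later groups, Hoxc8 stood at 65.4, 64.2 and 63.5 CPM in parental and 3.33, 2.32 and 2.22 CPM in cKO libraries (-4.61 ± 0.10, adjusted p = 1.4e-31). Hoxc5 stood at 125, 137 and 141 CPM against 7.62, 6.25 and 5.34 CPM (-4.39 ± 0.09, adjusted p = 2.65e-33), Hoxa5 at 135, 135 and 113 CPM against 19.7, 16 and 12.1 CPM, and Hoxb5 at 18.1, 19.4 and 17.4 CPM against 0.715, 1.1 and 0.89 CPM. The 2 exceptions that were called higher, Hoxc13 (1.13 ± 0.27) and Hoxd13 (1.05 ± 0.40, adjusted p = 0.0184), lie at the far end of their clusters, and Hoxd13 lost its call without parental replicate 3 (adjusted p = 0.0677) and without cKO replicate 1 (adjusted p = 0.0648).

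**Figure D4:**
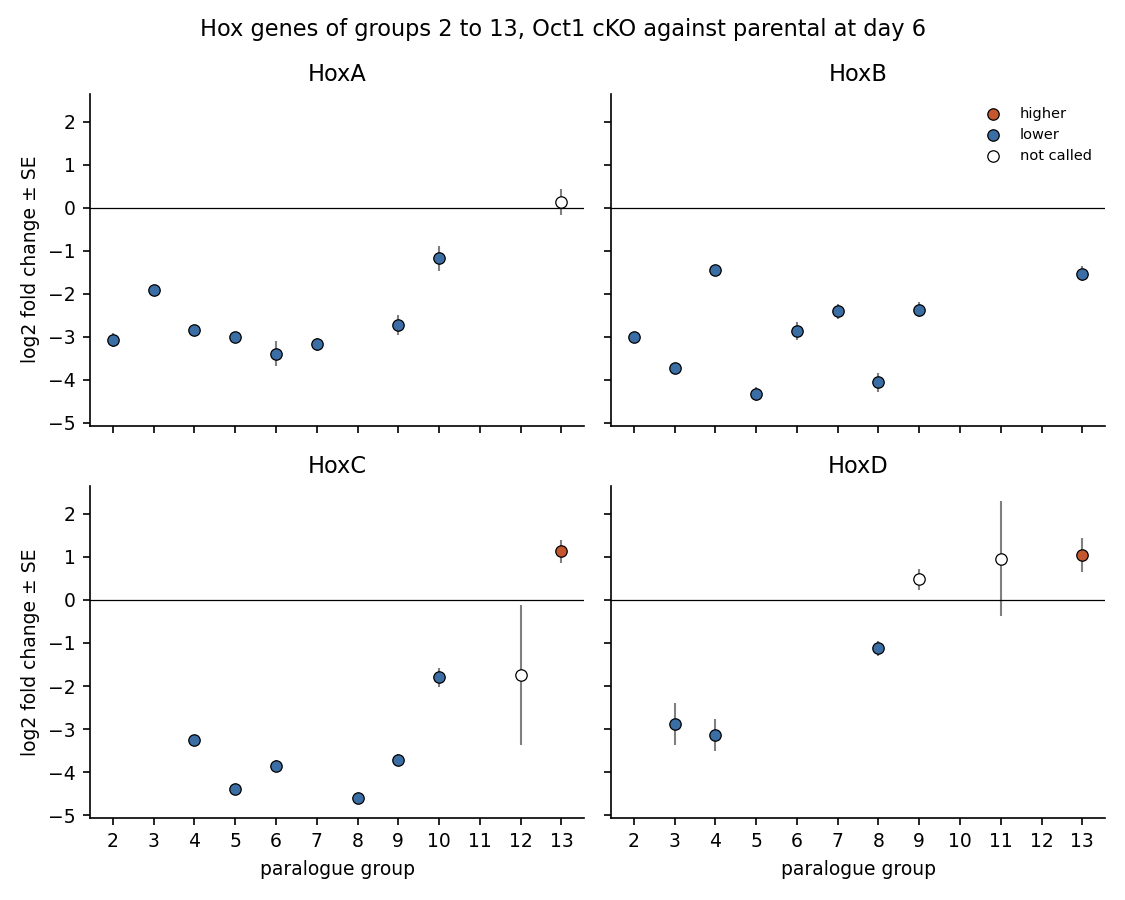
Log2 fold change of each tested Hox gene of groups 2 to 13, Oct1 cKO against parental at day 6, by paralogue group along the 4 clusters; bars are the SE and colours the call. All tested genes of groups 2 to 8 lay below 0, and Hoxc13 and Hoxd13 were called higher.

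At day 2 Hoxb1 had been lower in the cKO, with means of 346 CPM in parental and 88.7 CPM in cKO cells. The interaction of genotype and day was 2.86 ± 0.22 (adjusted p = 5.46e-14). Its level thus fell from day 2 to day 6 in both genotypes, and further in the parental cells.

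Because Oct1 binds the octamer, the 250 bases before each start in RefSeq's promoter table (GRCm38.p6) were searched for the letters ATGCAAAT on both strands. By symbol, 12754 of 18342 tested genes had an entry. The octamer stood in 1.33% of 16206 promoters of all tested genes, in 1.60% of 2496 promoters of genes called higher by at least 2-fold and in 1.74% of 3280 promoters of genes called lower. Both shares lay above that of all tested genes, by an amount that was not tested, and over all 32851 promoters in the table, untested genes included, the share was 1.60%. Shown are 6 list members that carry the letters, picked to hold higher and lower genes of the groups above and not as a sample of all that do. The octamer is in capitals, in either direction, and each window runs 5′ to 3′ along the gene's strand.
Zfp42, higher, chr8:43307143-43307240, minus strand: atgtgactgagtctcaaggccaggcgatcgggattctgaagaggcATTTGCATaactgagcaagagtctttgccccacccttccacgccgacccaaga
Cdx2, higher, chr5:147307344-147307441, minus strand: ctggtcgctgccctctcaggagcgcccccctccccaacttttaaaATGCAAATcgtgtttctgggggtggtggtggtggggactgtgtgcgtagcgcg
Aldh1a1, higher, chr19:20601867-20601964, plus strand: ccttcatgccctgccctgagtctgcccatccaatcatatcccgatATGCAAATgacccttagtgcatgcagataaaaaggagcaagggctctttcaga
Aldh1a2, lower, chr9:71215660-71215757, plus strand: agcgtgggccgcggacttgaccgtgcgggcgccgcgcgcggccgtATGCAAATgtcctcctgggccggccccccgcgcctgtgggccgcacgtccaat
Col3a1, lower, chr1:45311345-45311442, plus strand: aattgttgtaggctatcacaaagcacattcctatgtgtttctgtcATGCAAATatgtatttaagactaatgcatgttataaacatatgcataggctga
Sfrp2, lower, chr3:83766229-83766320, plus strand: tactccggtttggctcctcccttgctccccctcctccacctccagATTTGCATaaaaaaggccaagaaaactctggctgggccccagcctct

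The octamer ended 178 bases before the start in Zfp42, 139 in Cdx2, 48 in Aldh1a1, 76 in Aldh1a2, 140 in Col3a1 and 39 in Sfrp2. Of the retinal dehydrogenases that carry the letters, Aldh1a1 rose and Aldh1a2 fell. The fibrillar collagen Col3a1 stood at 1103, 1097 and 1211 CPM in parental and 181, 173 and 143 CPM in cKO libraries, and the secreted Wnt modulator Sfrp2 at 8.36, 9.45 and 8.77 CPM against 0.119, 0.116 and 0.191 CPM (-5.91 ± 0.24, adjusted p = 3.86e-23, on 518 and 7 reads). The element of the retinoic acid receptor known as DR5, here AGGTCA or AGTTCA repeated in 1 direction with 5 bases between, was searched on both strands and stood in 0.0247% of promoters of tested genes. Cyp26a1 held one on the opposite strand, shown in capitals because the gene is a direct target whose level barely differed between genotypes.
Cyp26a1, chr19:37697731-37697807, plus strand: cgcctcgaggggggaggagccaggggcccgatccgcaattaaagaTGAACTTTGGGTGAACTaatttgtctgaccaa

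A match of letters is no evidence of binding, and no match says only that these letters were not in the window.

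Smads carry signals of the TGF-beta family to DNA, Smad2 and Smad3 for TGF-beta and nodal, Smad1, Smad5 and Smad9 for BMPs, with Smad4 as shared partner and Smad6 and Smad7 as inhibitors. Of these 8 genes 5 were lower and 2 higher. Smad3 stood at 165, 162 and 160 CPM in parental and 60.3, 60.1 and 56.9 CPM in cKO libraries (-1.46 ± 0.06, adjusted p = 1.69e-23), whereas Smad2 stood at 92.8, 92.5 and 92.7 CPM against 135, 140 and 132 CPM (0.55 ± 0.05, adjusted p = 1.92e-12). The 3 BMP Smads fell: Smad1 from 46.3, 45.8 and 40.7 CPM to 20.9, 21 and 22.6 CPM (-1.04 ± 0.07), Smad5 from 185, 190 and 187 CPM to 92.1, 94.9 and 91.8 CPM (-1.01 ± 0.05) and Smad9 from 14.7, 14.4 and 17.4 CPM to 1.13, 1.22 and 0.953 CPM (-3.80 ± 0.16). Smad4 overlapped between groups, at 120 ± 2.58 and 127 ± 5.37 CPM (adjusted p = 0.143). Of the inhibitors, Smad6 fell from 28 ± 2.25 to 8.16 ± 1.43 CPM. Smad7 was slightly higher, at 36.1 ± 3.05 and 44.8 ± 1.45 CPM (0.31 ± 0.07). The size of that rise depends on the scaling of the libraries, since Smad7 held 2112 parental and 2234 cKO reads.

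Ligands, receptors and inhibitors of the family were 15 of 32 lower and 11 higher, with a median of -0.25. That balance is not far from that of all genes, 37.8% lower and 36.7% higher. The ligands Tgfb2 and Tgfb3 fell, Tgfb3 from 182, 196 and 189 CPM to 19, 19.9 and 19.3 CPM (-3.28 ± 0.06, adjusted p = 7.18e-34) and Tgfb2 from 138 ± 3.8 to 20 ± 3.05 CPM. Bmp4 fell from 11.6 ± 0.8 to 3.63 ± 0.413 CPM (-1.68 ± 0.13) and Bmp5 from 17.9 ± 1.88 to 1.4 ± 0.446 CPM. On the nodal side, Nodal itself rose on few reads, 17 and 72 (0.291 ± 0.111 and 1.46 ± 0.518 CPM, adjusted p = 1.06e-06), and the activin and nodal receptor Acvr2b rose from 22.8 ± 2.23 to 81 ± 2.07 CPM (1.83 ± 0.07). Of 23 targets, 12 were lower and 7 higher, with a median of -0.24. The BMP target Id3 stood at 273, 268 and 287 CPM against 33.1, 31.9 and 29.5 CPM (-3.13 ± 0.07, adjusted p = 1.07e-29), while Id1, of the same family, fell less, from 84.9 ± 7.9 to 50.7 ± 1.61 CPM (-0.74 ± 0.06). Tgfbi, named for its induction by TGF-beta, fell from 530 ± 17.2 to 28.5 ± 5.24 CPM (-4.21 ± 0.08). Lefty1, a nodal target, was not called on 65 and 46 reads (adjusted p = 0.383).

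Wnt pathway genes were lower in 22 of 33 cases and higher in 6, with a median of -1.08. Wnt4 stood at 237, 226 and 245 CPM in parental and 11.9, 10.2 and 8.96 CPM in cKO libraries (-4.51 ± 0.08, adjusted p = 3.76e-35). Axin2, a feedback target of beta-catenin on chromosome 11, stood at 66.5, 69.9 and 72.2 CPM against 4.05, 4.23 and 3.94 CPM (-4.09 ± 0.08, adjusted p = 9.15e-33), and Lef1, a partner of beta-catenin, fell from 7.99 ± 1.54 to 1.02 ± 0.336 CPM. The ligands Wnt7a and Wnt7b rose, Wnt7b from 3.8 ± 1.09 to 28.8 ± 1.98 CPM (2.93 ± 0.12). Fgf and ERK response genes were 14 of 25 lower and 7 higher, with a median of -0.95 (-0.36 with Fgf8, at 0 in 1 group, at the floor). Among them the immediate early gene Egr1 fell from 109 ± 9.98 to 14.2 ± 2.86 CPM (-2.94 ± 0.09) and the ETS factor Etv1 from 37.5 ± 1.15 to 4.51 ± 0.592 CPM (-3.05 ± 0.10). Notch genes were 7 of 20 higher and 6 lower (6 and 7 with library sizes alone); the ligand Dll4 rose from 0.993 ± 0.264 to 5.09 ± 0.328 CPM and the target Hey1 fell from 26.4 ± 1.58 to 3.98 ± 0.698 CPM (-2.72 ± 0.12).

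Glycolysis genes were 18 of 23 higher and 2 lower with a median of 0.41, and 13 higher and 3 lower with library sizes alone. The glucose transporters Slc2a1 and Slc2a3 stood out: Slc2a1 at 532, 562 and 556 CPM in parental and 2625, 2450 and 2530 CPM in cKO libraries (2.20 ± 0.05, adjusted p = 8.73e-31), and Slc2a3 at 267, 281 and 277 CPM against 1567, 1628 and 1622 CPM (2.55 ± 0.05). Pfkp, a phosphofructokinase, rose from 37.1 ± 1.36 to 199 ± 2.7 CPM, and Ldhb, a lactate dehydrogenase chain, fell from 86.5 ± 5.84 to 24.4 ± 3.26 CPM (-1.83 ± 0.07). Slc2a1 had been lower in the cKO at day 2, at means of 1957 and 1183 CPM.

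Proliferation genes were evenly split at 12 higher and 12 lower of 28, mostly by small amounts: Mki67 fell from 323 ± 6.38 to 236 ± 18.7 CPM (-0.45 ± 0.10). The cell cycle inhibitor Cdkn1c, an imprinted gene, rose from 59.1 ± 4.06 to 284 ± 19.2 CPM (2.26 ± 0.06), and Ccnd1 fell from 26.2 ± 4.22 to 10.6 ± 1.04 CPM (-1.30 ± 0.09). Of 20 p53 target and cell death genes 7 were higher and 7 lower, and Cdkn1a overlapped between groups at 140 ± 19.2 and 145 ± 5.54 CPM (adjusted p = 0.488). With library sizes alone the splits became 5 higher and 15 lower for proliferation and 5 and 10 for the p53 list, which without parental replicate 1 had 11 higher and 7 lower.

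Imprinted genes, expressed from 1 parental allele, were 13 of 30 higher and 15 lower, and the differences were large both ways. Peg10, a retrotransposon-derived placental gene, rose from 3022, 3043 and 2939 CPM to 14487, 14091 and 14788 CPM (2.27 ± 0.05, adjusted p = 7.84e-31), or 719297 reads over the 3 cKO libraries. Mest, a gene of mesoderm, fell from 1835, 1817 and 1812 CPM to 219, 203 and 197 CPM (-3.14 ± 0.05, adjusted p = 1.81e-35). Phlda2, which restrains placental growth, rose from 1.05 ± 0.229 to 17.8 ± 2.17 CPM (4.09 ± 0.16), and Ndn and Nnat fell, Ndn from 79.6 ± 0.702 to 9.59 ± 0.753 CPM. Polycomb genes and histone demethylases were 12 of 21 higher and 7 lower, but 6 and 9 with library sizes alone, and 9 and 2 without the 8 members on chromosome 11; Rbbp7 rose from 666 ± 21.2 to 1746 ± 49.3 CPM (1.39 ± 0.05) and Cbx2, on chromosome 11, fell from 84.5 ± 1.13 to 23.8 ± 0.765 CPM. Interferon and antigen presentation genes were 10 of 25 higher and 9 lower, or 9 and 13 with library sizes alone, and 10 and 5 without the 4 on chromosome 11. H2-D1, a class I molecule with close paralogues, rose from 44.2 ± 0.703 to 243 ± 8.76 CPM (2.46 ± 0.06), while Irgm1, a chromosome 11 GTPase, fell from 32.7 ± 0.652 to 3.44 ± 0.337 CPM (-3.25 ± 0.10). Replication-dependent histone genes were 17 of 28 lower and 1 higher. Many of them are near-identical copies, many held few reads, and RNA of this class is mostly not polyadenylated. The part of RNA selection in this result was not tested.

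Among the other POU factors Pou2f3 rose from 1.76 ± 0.119 to 8.29 ± 0.711 CPM (2.23 ± 0.15), and Pou3f1 and Pou6f1 fell, Pou3f1 from 11.7 ± 1.48 to 4.03 ± 0.463 CPM and Pou6f1 from 15.2 ± 0.79 to 2.66 ± 0.624 CPM. In all, 2 of 12 were higher, Pou5f1 and Pou2f3, and 5 lower.

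Single genes were ranked by size among those whose mean log2 CPM reached 1 and whose groups did not overlap; over all genes, the fitted log2 fold changes ran from -9.64 to 6.84. Within that limit Atp2c2 came next to Pou5f1 and Dnmt3l among the increases. This calcium pump of secretory cells stood at 1.29, 2.49 and 1.78 CPM in parental and 59.3, 61.8 and 65.5 CPM in cKO libraries (5.07 ± 0.13, adjusted p = 2.3e-28). Slc34a2, a phosphate transporter, stood at 2.14, 2.18 and 2.35 CPM against 52.6, 54.3 and 50.8 CPM (4.56 ± 0.10), and Abcc8, a subunit of potassium channels, rose from 2.56 ± 0.777 to 51.5 ± 3.61 CPM. Chil1, Zbtb32 and Wfdc2 were also among the 12 increases at its head. Within the same limit the decreases were led by Mybpc1, a myosin-binding protein of slow muscle, from 23.1, 22.9 and 25.3 CPM to 0.179, 0.0579 and 0.0636 CPM (-7.79 ± 0.24, adjusted p = 6.71e-27), and by Gria1, a glutamate receptor subunit on chromosome 11, from 24.5 ± 1.23 to 0.138 ± 0.132 CPM. The cKO libraries held only 5 reads of Mybpc1 and 7 of Gria1 in all. The interferon-inducible Ifi203 fell from 66.3 ± 0.918 to 0.543 ± 0.161 CPM (-6.91 ± 0.14), and Tmem255a from 222 ± 18 to 2.06 ± 0.68 CPM (-6.74 ± 0.10). The transmitter receptor genes Gria1 and Gabra4 and the cadherin Cdh10 stood beside Dcx among the 12 decreases at the head of that ranking. Falls past 16-fold were more frequent than rises, with 469 genes (2.56%) against 172 (0.937%).

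Set against day 2, 2110 of the genes lower by at least 2-fold at day 6 (56.5%) had been called lower then and 429 higher. Of the genes higher by at least 2-fold at day 6, 1276 (44.5%) had been called higher at day 2 and 622 lower. Among all tested genes 33.7% were higher and 33.6% lower at day 2. The named genes with a reversal of at least 2-fold at both days numbered 18, and the share over all genes was not counted. A called interaction was part of the rule that picked them, so its adjusted p is no separate support. Stmn2 was the most marked: it had means of 28.2 CPM in parental and 117 CPM in cKO cells at day 2, and of 91.3 and 1.88 CPM at day 6 (interaction -7.65 ± 0.12, adjusted p = 4.57e-34). Gata6 went from 10.8 and 26.5 CPM at day 2 to 304 and 68 CPM at day 6 (interaction -3.45 ± 0.10, adjusted p = 1.91e-27). In both genes the cKO was ahead at day 2 and the parental cells were far above it at day 6.

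**Figure D5:**
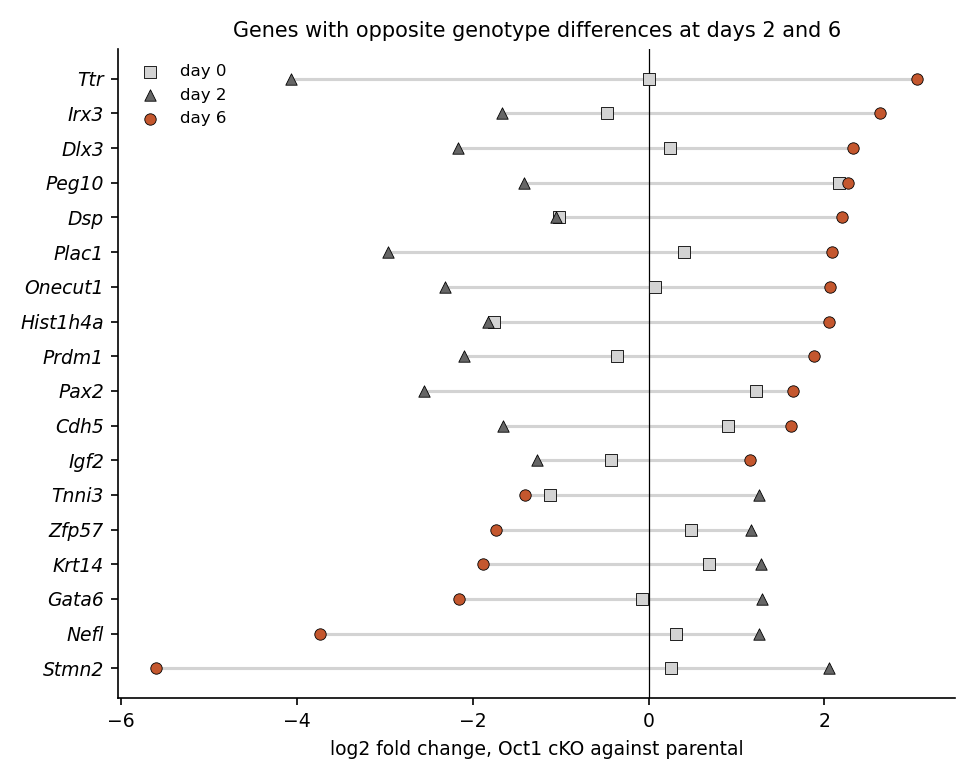
Log2 fold change, Oct1 cKO against parental, at day 0 (squares), day 2 (triangles) and day 6 (circles) for the 18 named genes with called differences of at least 2-fold in opposite directions at days 2 and 6; grey lines join days 2 and 6. Of these genes 12 went from lower to higher and 6 from higher to lower, Stmn2 farthest.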

How the data were processed

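RNA-seq of total RNA was analysed in 18 libraries, 3 for each of 6 groups of genotype and day. The deposited table holds counts, as whole reads for each of 21995 genes. Per the submitters' processing notes, Novoalign, DESeq2 1.10.0 and the builds mm10 and GRCm38 were involved; the sources used here do not name the read counter or say how strand and shared reads were handled. Gene positions are those of GRCm38 (GENCODE).

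Genes passed filterByExpr (minimum count 10, minimum total 15), leaving 18352. All 18 libraries entered 1 edgeR 4.0.16 quasi-likelihood fit in R 4.3.3 with TMM factors, a coefficient per group and Benjamini-Hochberg adjustment over all genes tested; the day 6 contrast took the 6 libraries of that day. The SE is the log2 fold change over the square root of F. On simulated counts of 17173 genes, 200 were changed, as many up as down, and the rest were left equal. Of genes changed 2-fold 94% were recovered, and of those changed 4-fold 100%. The false share was 8.49%, above what the 0.05 threshold aims at. In the data 74.5% of genes were called, a setting that was not simulated, so these rates may not hold for the contrast. No replicate pair fell within sampling noise. Among the libraries used only for spread and earlier days, replicate 3 of the Oct1 cKO at day 0 stood apart.

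The genes and the 40 lists were chosen with earlier results of these data known. Named genes were Pou2f1, a fixed set, the 12 largest increases and decreases among genes whose mean log2 CPM reached 1 and whose groups did not overlap, and from each list the 5 members of lowest adjusted p, plus members called against their list by 2-fold or more. Other list members named here were chosen after their values were seen. Lists were counted, not tested. Alternatives were DESeq2 1.42.0 or its size factors, library sizes alone, TMM without chromosome 11, no filter, only the libraries compared, a test against a fold of 1.5 and each library left out. Some genes are not reported here.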

Additional observations from a re-analysis of the deposited data

Results flagged for a closer look

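The 18 genes below had genotype differences called in opposite directions at days 2 and 6, at least 2-fold at both. The rule also asked that the interaction of genotype and day be called in edgeR. That call (largest adjusted p = 1.06e-05) was nearly fixed by the other limits and is no separate support for the reversals. The 18 are those of 69 named genes with opposite calls, out of 291, that pass the 2-fold limit at both days. Over all genes at least 2-fold higher at day 6, 622 (21.7%) had been called lower at day 2. Of those at least 2-fold lower, 429 (11.5%) had been called higher. The share past 2-fold at both days was not counted over all genes, so the 18 are not shown to be more than usual. The values are the log2 fold change at day 6 minus that at day 2.

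Lower in the Oct1 cKO at day 2 and higher at day 6 were 12 genes. The change was 7.11 for Ttr, which held so few reads in the cKO at day 2 (0.0617 CPM) that the fitted size is no bound. It was 5.04 for the placental Plac1, 4.49 for the homeobox gene Dlx3 and 3.69 for Peg10, 3 genes of trophoblast. Irx3 changed by 4.30, Onecut1 by 4.38 and Pax2 by 4.19, all homeobox or paired-box factors. Onecut1 and Pax2 rest on few reads at day 6, with 23 and 40 in parental and 83 and 107 in cKO libraries. Prdm1, a repressor in germ cell specification, changed by 3.97. Junction genes were also among them, with 3.27 for Cdh5 and 3.25 for Dsp. Cdh5 was low in both genotypes at day 2, so that side of its reversal rests on few reads. The growth factor Igf2 changed by 2.43, and the histone Hist1h4a, one of several near-identical copies, by 3.88 (11 and 40 reads at day 6).

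Higher in the Oct1 cKO at day 2 and lower at day 6 were 6 genes. The change was -7.65 for Stmn2 and -4.99 for Nefl, both of the neuronal cytoskeleton. Gata6 changed by -3.45, Zfp57 by -2.90, the basal keratin Krt14 by -3.16 and the cardiac troponin Tnni3 by -2.66. The cause of these reversals was not tested.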

How the results depend on the processing

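Tested against a fold of 1.5, the calls fell from 13680 to 7804 (3531 higher, 4273 lower), and the differences from day 2 and day 0 fell to 6493 and 7086 genes, since the test asks for more than a nonzero change. No other alternative moved these counts by over 1.5 times. Library sizes alone moved the split to 5241 higher and 8414 lower. Leaving out 1 library gave 13301 to 14114 calls, 6388 to 6837 higher and 6470 to 7286 lower, 6623 to 6799 of at least 2-fold, and 11297 to 12144 and 11459 to 11780 that differed from days 2 and 0; these ranges include Oct1 cKO day 0 replicate 3, left out after seeing the data. Lists with more members higher numbered 16 and with more lower 20, and 15 to 18 and 19 to 21 with a library left out. They numbered 13 and 27 with library sizes alone, but 20 and 18 with DESeq2 size factors and 20 and 19 with no filter, so the balance over lists turned.

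Of 291 named genes, 277 kept their direction and call under every alternative that gave them a value. Cdkn1a changed sign with library sizes alone (-0.16, adjusted p = 0.0198; adjusted p = 0.488 in the fit reported) and was called higher without parental replicate 1 (0.19, adjusted p = 0.00579). No paired analysis was possible because replicate numbers follow sample order and pair nothing. At this depth 3 counts come to 0.149 to 0.191 CPM in a day 6 library, so values under that rest on fewer reads.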
